A study of Mus musculus with 8 samples.

Results

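A set of 10 genes that mark blood stem cells and their early descendants was followed across 8 mouse libraries: the transcription factors Mecom, Hlf and Erg, the receptors Kit and Flt3, the ligand Angpt1, and the surface molecules Cd34, Ly6a, Procr and Slamf1. They were taken from the count table by gene symbol, and all 10 were found among its 24421 genes. All 10 also passed the filter on low counts, which kept 12744 genes. The cells were HSPCs (haematopoietic stem and progenitor cells, from which blood is made), collected from recipients of a primary transplant. The series title gives the double knockout (dKO) as a loss of the homeobox factor Hoxa9 and of beta-catenin, through which canonical Wnt signals act on transcription. The dKOPRMT group was dKO cells given wild-type PRMT1, an enzyme that methylates arginine residues of proteins. The dKOMut group was dKO cells given an enzymatically dead PRMT1, dKOEV was dKO cells given the empty vector, and WTEV was wild-type cells given the empty vector. Each of the 4 groups had 2 libraries and all 4 had been transduced, with strain, age, marker gates and the way of deletion not given in the sources used here. Whether the libraries of a group came from separate animals or cultures is not stated in the labels, and the p-values can speak only for the spread among libraries, part or all of which may be technical.

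Haematopoietic stem cells keep themselves in number while giving rise to every blood lineage, and they are rare within the marrow. A small set of transcription factors, Mecom, Hlf and Erg among them, is needed to maintain them in mice. Stem and progenitor cells receive survival signals through the receptor tyrosine kinases Kit and Flt3, and stages along the path are told apart by surface molecules. In mice, Kit with Ly6a (Sca-1) marks the compartment that holds the stem cells, Procr and Slamf1 (CD150) mark stem cells within it, and Flt3 and Cd34 rise as cells leave the stem cell state.

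The libraries held 15531344 to 22329749 counts. Levels below are CPM, read counts scaled to the size of the library, and each change is a log2 fold change ± its standard error (n = 2 libraries a group). A gene is said to have risen or fallen where its Benjamini-Hochberg adjusted p in edgeR's quasi-likelihood test, fitted to all 8 libraries and adjusted over all 12744 genes, was under 0.05. Prmt1 stood at 981 and 976 CPM in dKOPRMT, 1744 and 1758 CPM in dKOMut, 190 and 194 CPM in dKOEV and 188 and 192 CPM in WTEV. In the comparison of dKOPRMT with dKOMut, the activity of the enzyme and the level of Prmt1 cannot be told apart. Hoxa9 was at 1.87 to 5.79 CPM in the 6 dKO libraries, against 18.2 and 17.2 CPM in WTEV. Ctnnb1, the gene of beta-catenin, was still counted at 360 to 391 CPM in the 6 dKO libraries, against 444 and 455 CPM in WTEV. It fell by 0.23 ± 0.04 in dKOEV against WTEV (adjusted p = 6.5e-05), a small change beside that of Hoxa9. The genotype label of dKOMut replicate 2 names PRMT2, while its title places it with dKOMut. Xist, which is transcribed from the inactive X chromosome, had 0 counts in the 6 dKO libraries, against 159 and 121 CPM in WTEV, and the Y-linked gene Ddx3y stood at 58.2 to 68.5 CPM in the dKO libraries, against 0 counts in WTEV. In any comparison with WTEV, genotype and the sex of the animals cannot be told apart. All 10 genes lie on autosomes. Genes of more mature cells were abundant: Mpo, a granule enzyme of myeloid progenitors, stood at 5784 to 9081 CPM, and Itgam, the myeloid integrin CD11b, at 538 to 689 CPM. Among 29 neutrophil genes, the summed level was 24050 to 24497 CPM in dKOPRMT, 27544 to 27862 CPM in dKOMut, 21535 to 23086 CPM in dKOEV and 13660 CPM to 13669 CPM in WTEV. The part that this mixture has in the levels of the 10 genes was not tested, and in such bulk samples fewer cells of a type and less RNA per cell cannot be told apart.

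Compared per kilobase of transcript (RPKM), the genes spanned a wide range. Averaged over the 8 libraries, Ly6a was highest at 206.9 RPKM, followed by Cd34 at 51.3 RPKM, Kit at 29.8 RPKM, Angpt1 at 17.1 RPKM and Erg at 14.2 RPKM. Lower levels were found for Flt3 at 5.80 RPKM, Hlf at 2.26 RPKM, Procr at 1.53 RPKM, Mecom at 0.780 RPKM and Slamf1 at 0.338 RPKM. The order was not the same in every group: Erg stood above Angpt1 in dKOPRMT and dKOMut, and Angpt1 stood above Erg in dKOEV and WTEV. The ranges of neighbouring genes overlapped only for Mecom and Slamf1 in WTEV, where Mecom had 0.214 to 0.352 RPKM and Slamf1 0.140 to 0.292 RPKM.

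**Figure D1:**
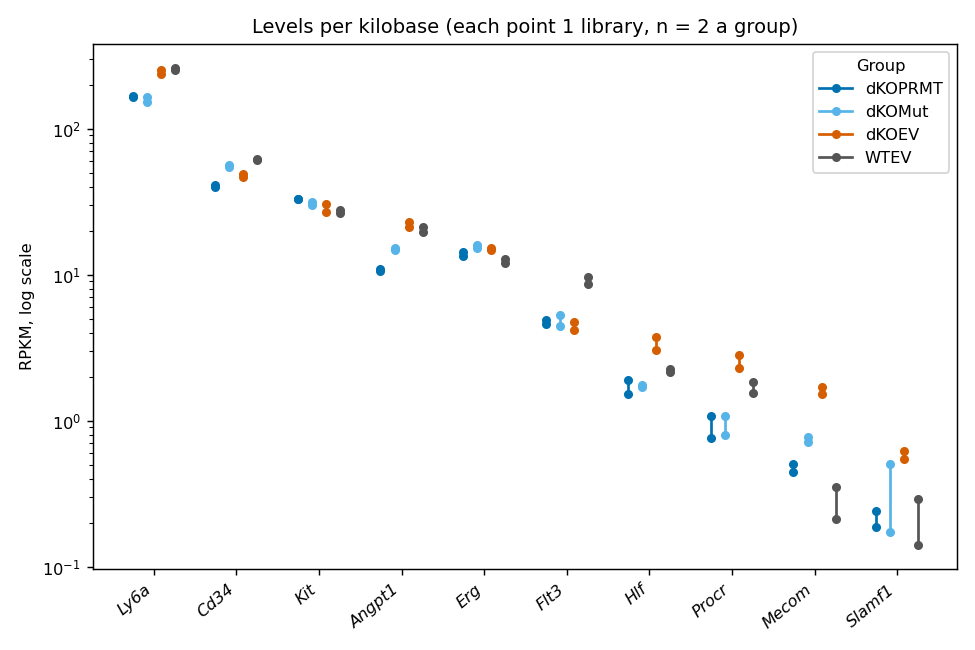
Level of each gene per kilobase (RPKM, log scale) in each of the 8 libraries, coloured by group and joined within a group (n = 2). Genes are ordered by their mean over all libraries, from Ly6a at 206.9 RPKM to Slamf1 at 0.338 RPKM.

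The 3 transcription factors are described first. Mecom encodes EVI1 and longer PR-domain forms, zinc-finger factors that long-term stem cells need. Its counted span is chr3:29951296-30509487 on the minus strand (GRCm38). There were 2.46 and 2.78 CPM of Mecom in dKOPRMT, 3.96 and 4.23 CPM in dKOMut, 8.40 and 9.41 CPM in dKOEV and 1.18 and 1.94 CPM in WTEV. No pair of groups overlapped, with dKOEV highest and WTEV lowest. These levels rest on 24 to 210 counts a library. Mecom rose 5.74-fold in dKOEV against WTEV, at 2.52 ± 0.32 (adjusted p = 3.1e-07), the largest change of the 10 genes in any of the 6 comparisons that could be made between the groups. Against dKOEV it fell by 1.76 ± 0.30 in dKOPRMT (adjusted p = 4.3e-05) and by 1.12 ± 0.29 in dKOMut (adjusted p = 0.0076). The dKOMut call was lost without dKOEV replicate 2 (adjusted p = 0.0518) and without dKOMut replicate 1 (adjusted p = 0.0682). Against WTEV, Mecom was still above in dKOMut at 1.40 ± 0.33 (adjusted p = 0.0018, and 0.0814 without WTEV replicate 1), whereas 0.76 ± 0.35 in dKOPRMT did not pass (adjusted p = 0.118). The difference between the active and the dead enzyme, -0.64 ± 0.31, did not pass either (adjusted p = 0.370, 95% interval -1.28 to -0.01).

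Hlf encodes a PAR-type leucine zipper factor that restrains stem cell cycling. It covers chr11:90336535-90390917 on the minus strand. Hlf had 8.68 and 10.7 CPM in dKOPRMT, 9.93 and 9.66 CPM in dKOMut, 21.3 and 17.4 CPM in dKOEV and 12.1 and 12.8 CPM in WTEV. Both dKOEV libraries lay above the other 6, and the dKOPRMT and dKOMut libraries overlapped. The rise in dKOEV against WTEV was 0.63 ± 0.17 (adjusted p = 0.0086). It lost its call without WTEV replicate 1 (adjusted p = 0.0987), WTEV replicate 2 (0.0579) or dKOEV replicate 1 (0.0914). Against dKOEV, Hlf fell by 0.99 ± 0.17 in dKOPRMT (adjusted p = 5.8e-05) and by 0.97 ± 0.17 in dKOMut (adjusted p = 9.3e-05), about 1.98-fold and 1.96-fold lower. The difference between dKOPRMT and dKOMut was -0.01 ± 0.18, with a 95% interval of -0.38 to 0.35. Against WTEV, -0.36 ± 0.18 in dKOPRMT and -0.35 ± 0.18 in dKOMut did not pass.

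Erg, an ETS factor of stem cells and megakaryocytes, varied least among the factors. Its counted span is chr16:95359169-95586593 on the minus strand. Its level was 46.3 and 49.9 CPM in dKOPRMT, 52.9 and 55.1 CPM in dKOMut, 51.0 and 52.9 CPM in dKOEV and 41.7 and 44.3 CPM in WTEV. WTEV was lowest and overlapped no dKO group. Erg rose by 0.28 ± 0.09 in dKOEV (adjusted p = 0.028) and by 0.33 ± 0.09 in dKOMut (adjusted p = 0.0054) against WTEV, while 0.16 ± 0.09 in dKOPRMT did not pass. The dKOEV call was lost without WTEV replicate 1 (adjusted p = 0.248), WTEV replicate 2 (0.0822) or dKOEV replicate 2 (0.114), and the dKOMut call without WTEV replicate 1 (0.0946) or dKOMut replicate 2 (0.0502). Neither construct moved it past the threshold against dKOEV, at -0.11 ± 0.09 in dKOPRMT and 0.05 ± 0.09 in dKOMut.

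**Figure D2:**
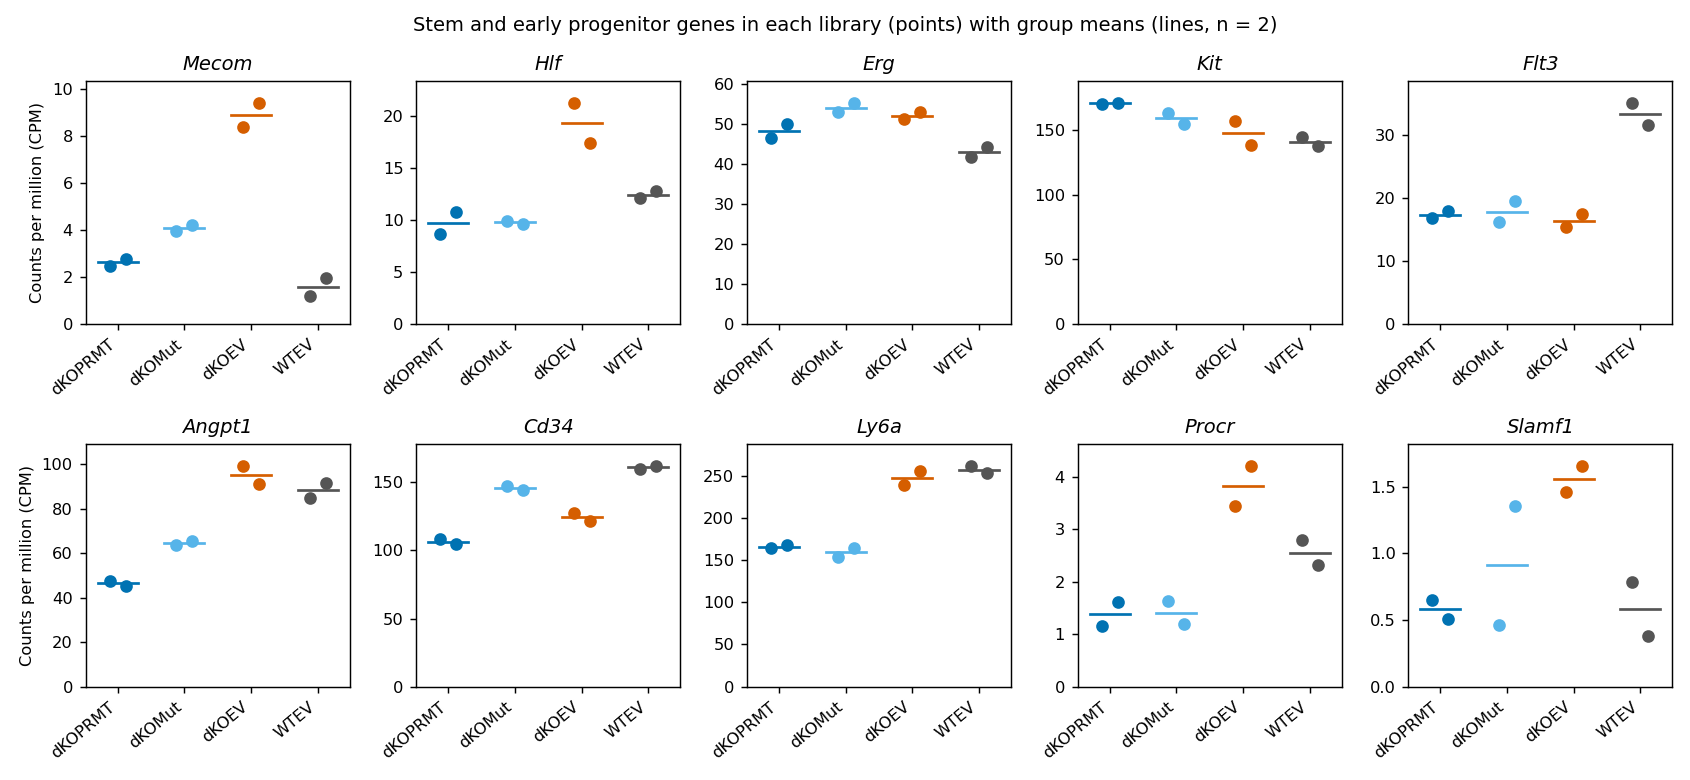
CPM of each of the 10 genes in each library (points) with the group mean (line, n = 2), 1 panel a gene with its axis from 0. Mecom at 8.40 and 9.41 CPM and Hlf at 21.3 and 17.4 CPM are highest in dKOEV, whereas Flt3 at 35.1 and 31.6 CPM and Cd34 at 160 and 162 CPM are highest in WTEV.

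The promoters of these factors are shown because all 3 genes moved in the same direction in dKOEV against WTEV. RefSeq start sites (GRCm38.p6) were matched for 8 of the 10 genes, with 12 windows of 250 bases before a start site. Ly6a and Angpt1 were not matched. On both strands, the windows were searched for 6 motifs: the GATA motif AGATAA, the ETS motif GGAAGT, the TCF/LEF motif CTTTGA, the posterior Hox motif TTTACG, the interferon-response motif GAAANNGAAA and the STAT motif TTCNNNGAA. Each sequence is printed 5′ to 3′ along the gene's strand, ending 1 base before the start site, with motif matches in capitals. Both Mecom windows are given, the distal one at chr3:30509760-30510009 and the proximal one at chr3:30013205-30013454. The distal start lies outside the exons that were counted. The Hlf window is chr11:90390918-90391167 and the outermost of 3 Erg windows is chr16:95586594-95586843, all 4 on the minus strand.
Mecom distal: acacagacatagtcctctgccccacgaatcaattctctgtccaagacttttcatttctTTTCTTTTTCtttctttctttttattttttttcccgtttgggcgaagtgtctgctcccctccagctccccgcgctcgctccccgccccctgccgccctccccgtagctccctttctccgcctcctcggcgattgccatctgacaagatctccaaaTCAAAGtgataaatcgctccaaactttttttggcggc
Mecom proximal: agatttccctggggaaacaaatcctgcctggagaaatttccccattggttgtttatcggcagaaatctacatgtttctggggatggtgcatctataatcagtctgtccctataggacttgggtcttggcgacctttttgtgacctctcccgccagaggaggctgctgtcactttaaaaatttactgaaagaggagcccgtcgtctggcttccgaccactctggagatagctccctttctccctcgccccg
Hlf: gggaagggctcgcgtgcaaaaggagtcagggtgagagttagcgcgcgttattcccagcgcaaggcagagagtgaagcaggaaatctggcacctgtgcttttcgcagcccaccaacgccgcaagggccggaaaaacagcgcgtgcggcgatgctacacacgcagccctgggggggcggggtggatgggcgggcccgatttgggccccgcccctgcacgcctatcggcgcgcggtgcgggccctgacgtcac
Erg: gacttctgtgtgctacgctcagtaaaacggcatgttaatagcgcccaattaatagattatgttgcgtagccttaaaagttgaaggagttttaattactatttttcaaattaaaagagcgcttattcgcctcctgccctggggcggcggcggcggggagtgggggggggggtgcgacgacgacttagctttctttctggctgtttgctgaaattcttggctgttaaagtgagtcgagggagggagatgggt

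In the distal Mecom window, TCAAAG, the TCF/LEF motif on the other strand, begins at position -37 from the start site, and the interferon-response motif on the other strand begins at -192. The proximal Mecom window, the Hlf window and this Erg window held none of the 6 motifs. The innermost Erg window, not printed, held the GATA motif at -103. Over 32817 mouse promoter windows of the same length, the share with a match was 13.83% for TCF/LEF, 2.968% for the interferon-response motif, 9.992% for GATA, 19.73% for ETS, 2.618% for posterior Hox and 7.015% for STAT. The matches describe letters in a window and not binding.

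Kit and Flt3, the receptors for stem cell factor and FLT3 ligand, did not move together. Kit covers chr5:75574987-75656721 on the plus strand. It stood at 170.4 and 170.9 CPM in dKOPRMT, 163.6 and 154.5 CPM in dKOMut, 157.3 and 138.6 CPM in dKOEV and 144.4 and 137.5 CPM in WTEV. The dKOPRMT libraries were above all the others, while dKOMut overlapped dKOEV, and dKOEV overlapped WTEV. Kit rose 1.16-fold in dKOPRMT against dKOEV, at 0.21 ± 0.06 (adjusted p = 0.011). That call was lost without dKOEV replicate 2 (adjusted p = 0.224), dKOPRMT replicate 1 (0.0714) or dKOPRMT replicate 2 (0.0863). The values of 0.11 ± 0.06 for dKOMut against dKOEV and 0.07 ± 0.06 for dKOEV against WTEV did not pass. Against WTEV, Kit rose by 0.28 ± 0.06 in dKOPRMT (adjusted p = 3.8e-04) and by 0.17 ± 0.06 in dKOMut (adjusted p = 0.030). The dKOMut call was lost without WTEV replicate 2 (adjusted p = 0.260), without dKOMut replicate 1 (0.263) and in DESeq2's Wald test (0.0501). Between dKOPRMT and dKOMut, the difference was 0.10 ± 0.06 (95% interval -0.02 to 0.22). The dKOMut value against dKOEV was 0.20 and past the threshold without dKOEV replicate 1 (adjusted p = 0.0299).

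Flt3, which marks multipotent progenitors with lymphoid potential, separated wild type from every dKO group. It covers chr5:147330742-147400489 on the minus strand. It had 16.8 and 17.9 CPM in dKOPRMT, 16.2 and 19.5 CPM in dKOMut, 15.4 and 17.4 CPM in dKOEV and 35.1 and 31.6 CPM in WTEV. The 3 dKO groups overlapped one another and lay below WTEV. Flt3 fell 2.03-fold in dKOEV against WTEV, at -1.02 ± 0.14 (adjusted p = 6.3e-07), and changed by -0.94 ± 0.13 in dKOPRMT and -0.91 ± 0.13 in dKOMut against WTEV, both past the threshold. Against dKOEV, 0.08 ± 0.14 in dKOPRMT (95% interval -0.21 to 0.36) and 0.11 ± 0.14 in dKOMut (95% interval -0.17 to 0.40) did not pass. The Flt3 promoter window, shown because Flt3 fell in dKOEV, is chr5:147400490-147400739 on the minus strand. It held the TCF/LEF motif at -179 and the ETS motif at -75, both on the other strand and printed in capitals.
Flt3: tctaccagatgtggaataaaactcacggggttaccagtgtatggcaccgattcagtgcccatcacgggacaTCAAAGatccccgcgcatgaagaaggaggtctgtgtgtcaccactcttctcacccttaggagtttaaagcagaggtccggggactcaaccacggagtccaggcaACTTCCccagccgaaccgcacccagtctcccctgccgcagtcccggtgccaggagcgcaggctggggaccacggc

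The ligands of these receptors were low in these cells. Flt3l, which encodes FLT3 ligand, had 7.32 and 6.12 CPM in dKOPRMT, 8.16 and 8.36 CPM in dKOMut, 8.40 and 7.17 CPM in dKOEV and 6.37 and 8.62 CPM in WTEV. Kitl, which encodes stem cell factor, was at 0.101 to 2.32 CPM over the 8 libraries. Thpo, which encodes thrombopoietin, had 0 counts in all 8.

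Angpt1 encodes angiopoietin-1, a secreted ligand of the receptor Tek (TIE2) that stem and progenitor cells of the mouse marrow make themselves. It covers chr15:42424667-42676977 on the minus strand. Angpt1 stood at 47.4 and 45.4 CPM in dKOPRMT, 63.7 and 65.4 CPM in dKOMut, 99.3 and 91.3 CPM in dKOEV and 84.7 and 91.8 CPM in WTEV. The dKOPRMT libraries were lowest, dKOMut lay above them without overlap, and dKOEV and WTEV overlapped above both. Angpt1 fell 2.05-fold in dKOPRMT against dKOEV, at -1.04 ± 0.08 (adjusted p = 5.1e-13), and 1.47-fold in dKOMut, at -0.56 ± 0.07 (adjusted p = 6.0e-07). It was lower in dKOPRMT than in dKOMut by -0.48 ± 0.08 (adjusted p = 8.2e-05). Against WTEV it fell by 0.93 ± 0.08 in dKOPRMT and by 0.45 ± 0.07 in dKOMut, whereas 0.11 ± 0.07 in dKOEV did not pass. These calls and their directions held with each library left out in turn. Its receptor gene Tek was at 2.56 and 2.43 CPM in dKOPRMT, 3.59 and 3.09 CPM in dKOMut, 8.34 and 5.20 CPM in dKOEV and 2.11 and 2.80 CPM in WTEV. Both dKOEV libraries were above the other 6.

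Cd34, a sialomucin of progenitors, was the only one of the 10 genes that passed the test in opposite directions with the active and the dead enzyme against dKOEV, and each of these calls was lost with 1 library left out. Its counted span is chr1:194938821-194961292 on the plus strand. It had 108 and 105 CPM in dKOPRMT, 148 and 144 CPM in dKOMut, 128 and 122 CPM in dKOEV and 160 and 162 CPM in WTEV. No 2 groups overlapped: WTEV was highest, then dKOMut, dKOEV and dKOPRMT. Cd34 fell by 0.37 ± 0.06 in dKOEV against WTEV (adjusted p = 6.1e-06). Against dKOEV it fell by 0.23 ± 0.06 in dKOPRMT (adjusted p = 0.0046) and rose by 0.23 ± 0.06 in dKOMut (adjusted p = 0.0048). The first of these calls was lost without dKOPRMT replicate 2 (adjusted p = 0.0837) and the second without dKOMut replicate 1 (0.0514). Cd34 was lower in dKOPRMT than in dKOMut by -0.45 ± 0.06 (adjusted p = 7.8e-07), a 1.37-fold difference that kept its call with any library left out. Against WTEV it fell by 0.60 ± 0.06 in dKOPRMT, and -0.14 ± 0.06 in dKOMut did not pass (adjusted p = 0.068). That last value passed when only the compared groups were fitted (adjusted p = 0.0442) and without dKOEV replicate 1 (0.0405) or dKOEV replicate 2 (0.0408). Exons of Cd34 overlap the opposite-strand gene Gm16897, which had 0 to 29 counts a library. Whether reads were counted by strand is not given in the sources used here, and reads of this pair cannot be told apart with certainty. The Cd34 window, chr1:194938571-194938820 on the plus strand, is shown because Cd34 fell in dKOEV alongside Flt3, and it held none of the 6 motifs.
Cd34: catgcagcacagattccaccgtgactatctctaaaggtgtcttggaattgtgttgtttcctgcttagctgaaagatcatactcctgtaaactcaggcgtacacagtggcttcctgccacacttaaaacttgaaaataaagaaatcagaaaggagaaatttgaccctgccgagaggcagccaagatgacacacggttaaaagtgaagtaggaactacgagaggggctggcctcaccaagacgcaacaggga

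Ly6a encodes Sca-1, which with Kit defines the mouse stem and progenitor gate and which interferon is known to induce. It covers chr15:74994877-74998031 on the minus strand. Ly6a had 164 and 167 CPM in dKOPRMT, 154 and 165 CPM in dKOMut, 239 and 255 CPM in dKOEV and 262 and 253 CPM in WTEV. The libraries fell into a lower set, the overlapping dKOPRMT and dKOMut groups, and a higher set, the overlapping dKOEV and WTEV groups. Against dKOEV, Ly6a fell by 0.58 ± 0.05 in dKOPRMT (adjusted p = 3.7e-11) and by 0.64 ± 0.05 in dKOMut (adjusted p = 4.7e-12). Against WTEV it fell by 0.63 ± 0.05 in dKOPRMT and by 0.69 ± 0.05 in dKOMut, whereas -0.06 ± 0.05 in dKOEV did not pass (95% interval -0.16 to 0.04). The difference between the active and the dead enzyme, 0.06 ± 0.05, did not pass (95% interval -0.05 to 0.16). Of the 50-base stretches of Ly6a, 18.97% also occur in another gene, most often Ly6c1, so its count is uncertain where reads were shared. Its relative Ly6e, which is also in the interferon-stimulated list, fell by 0.39 ± 0.03 in dKOPRMT and by 0.24 ± 0.03 in dKOMut against dKOEV. Of 6 tested Ly6 family genes, Ly6a included, 3 fell in dKOPRMT and 2 in dKOMut against dKOEV, and the others did not pass. Ly6a aside, 2 fell in dKOPRMT, and 1 did by DESeq2's Wald test or when only the compared groups were fitted. The count was also lower with some single libraries left out. In the interferon-stimulated list, 34 of 35 genes fell in dKOPRMT and 34 of 35 in dKOMut against dKOEV, with median changes of -0.76 and -0.70, against 0.00 for all tested genes in both. Of all tested genes, 8.67% fell in dKOPRMT and 7.08% in dKOMut against dKOEV. That share was 7.00% in dKOEV against WTEV and 1.68% in dKOPRMT against dKOMut. In dKOEV against WTEV, 15 of the 35 fell and 2 rose, with a median of -0.14, and the number that rose was 0 without WTEV replicate 1, WTEV replicate 2 or dKOEV replicate 1. Between dKOPRMT and dKOMut, where Ly6a did not pass, 8 of the 35 fell and 0 rose, Rsad2 (-0.78 ± 0.10) and Ifit3 (-0.65 ± 0.08) among them. The number that fell was 5 without dKOMut replicate 2 or dKOPRMT replicate 1 and 4 without dKOPRMT replicate 2. Irf7, a transcription factor of the interferon response, stood at 139 and 128 CPM in dKOPRMT, 150.3 and 163 CPM in dKOMut, 337 and 349 CPM in dKOEV and 410.4 and 384 CPM in WTEV. Any part of interferon in the Ly6a values was not tested.

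Procr and Slamf1, surface markers of the stem cells themselves, were the rarest surface transcripts. Procr, the endothelial protein C receptor, covers chr2:155751217-155755478 on the plus strand. There were 1.15 and 1.62 CPM of Procr in dKOPRMT, 1.63 and 1.19 CPM in dKOMut, 3.44 and 4.21 CPM in dKOEV and 2.79 and 2.32 CPM in WTEV. The dKOPRMT and dKOMut groups overlapped below WTEV, and dKOEV was highest. Procr fell by 1.46 ± 0.44 in dKOPRMT (adjusted p = 0.019) and by 1.43 ± 0.44 in dKOMut (adjusted p = 0.026) against dKOEV. It had 22 to 94 counts a library. The dKOPRMT call was lost without dKOEV replicate 2 (adjusted p = 0.0865), dKOPRMT replicate 1 (0.182) or dKOPRMT replicate 2 (0.0589). The dKOMut call was lost without dKOEV replicate 2 (adjusted p = 0.106), dKOMut replicate 1 (0.0547) or dKOMut replicate 2 (0.167), and when only the compared groups were fitted (0.0558). The value for dKOEV against WTEV was 0.58 ± 0.42 (95% interval -0.26 to 1.43) and did not pass. Against WTEV, -0.88 ± 0.44 in dKOPRMT (adjusted p = 0.165) and -0.85 ± 0.44 in dKOMut (adjusted p = 0.204) did not pass either.

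Slamf1 (CD150) covers chr1:171767132-171801184 on the plus strand and had 7 to 37 counts a library. Its level was 0.652 and 0.506 CPM in dKOPRMT, 0.466 and 1.36 CPM in dKOMut, 1.46 and 1.66 CPM in dKOEV and 0.784 and 0.377 CPM in WTEV. Both dKOEV libraries were above the other 6, and the remaining groups overlapped. No comparison passed: Slamf1 was at 1.41 ± 0.75 in dKOEV against WTEV (adjusted p = 0.225), at -1.42 ± 0.75 in dKOPRMT and at -0.79 ± 0.72 in dKOMut against dKOEV. The 95% interval of the first of these, -0.10 to 2.92, covers both no change and a large rise.

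Counted together, the genes moved in both directions in the double knockout. In dKOEV against WTEV, 3 of the 10 rose and 2 fell, against 15.4% of all tested genes called in either direction, 8.44% higher and 7.00% lower. The median change of the 10 was 0.19, against -0.0005 for all tested genes. Those that rose were the factors Mecom, Hlf and Erg, and those that fell were Flt3 and Cd34. Without WTEV replicate 1 or WTEV replicate 2, 3 were called and 1 of them, Mecom, rose. The counts over all genes were 1967, and 1209 and 1149 without those libraries.

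Most of the 10 were lower in dKO cells given wild-type PRMT1. In dKOPRMT against dKOEV, 6 of the 10 fell and 1 rose, against 14.6% of all tested genes called, 8.67% lower and 5.96% higher. Mecom, Hlf, Angpt1, Cd34, Ly6a and Procr fell and Kit rose, with a median change of the 10 of -0.78, against 0.0004 for all tested genes. Without dKOPRMT replicate 2, 4 were called, and none rose without dKOEV replicate 2, dKOPRMT replicate 1 or dKOPRMT replicate 2. All genes called numbered 1864, and 1133 and 1058 without dKOPRMT replicate 1 and dKOPRMT replicate 2.

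Several of the 10 were also lower with the dead enzyme. In dKOMut against dKOEV, 5 of the 10 fell and 1 rose, against 11.3% of all tested genes called, 7.08% lower and 4.24% higher. Mecom, Hlf, Angpt1, Ly6a and Procr fell and Cd34 rose, with a median change of the 10 of -0.60, against 0.0024 for all tested genes. Without dKOMut replicate 1, 3 were called in all and none rose, 3 fell without dKOEV replicate 2, and 2 rose without dKOEV replicate 1. The comparisons of dKOPRMT and dKOMut with dKOEV share the dKOEV libraries, so their values stand side by side and were not correlated.

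The direct comparison of the active with the dead enzyme showed fewer differences. In dKOPRMT against dKOMut, 2 of the 10 fell, Angpt1 and Cd34, and 0 rose, against 3.11% of all tested genes called, 1.68% lower and 1.43% higher. At an unadjusted p under 0.05 in edgeR's quasi-likelihood test, 0 were higher and 3 lower, and DESeq2 also called 0 higher. The median of the 10 was -0.10. The 396 genes called in all were 244 and 240 without dKOMut replicates 1 and 2, and 171 and 205 without dKOPRMT replicates 1 and 2.

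Set against wild type, the dKO cells with either construct differed in about as many members. In dKOPRMT against WTEV, 4 fell (Flt3, Angpt1, Cd34 and Ly6a) and 1 rose (Kit), against 23.2% of all tested genes called, 12.2% lower and 11.0% higher. In dKOMut against WTEV, 3 fell (Flt3, Angpt1 and Ly6a) and 3 rose (Mecom, Erg and Kit), against 19.4% called, 9.96% lower and 9.41% higher. The 3 that rose became 1 without WTEV replicate 1. The 2955 genes called in dKOPRMT against WTEV were 1954 without dKOPRMT replicate 1.

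**Figure D3:**
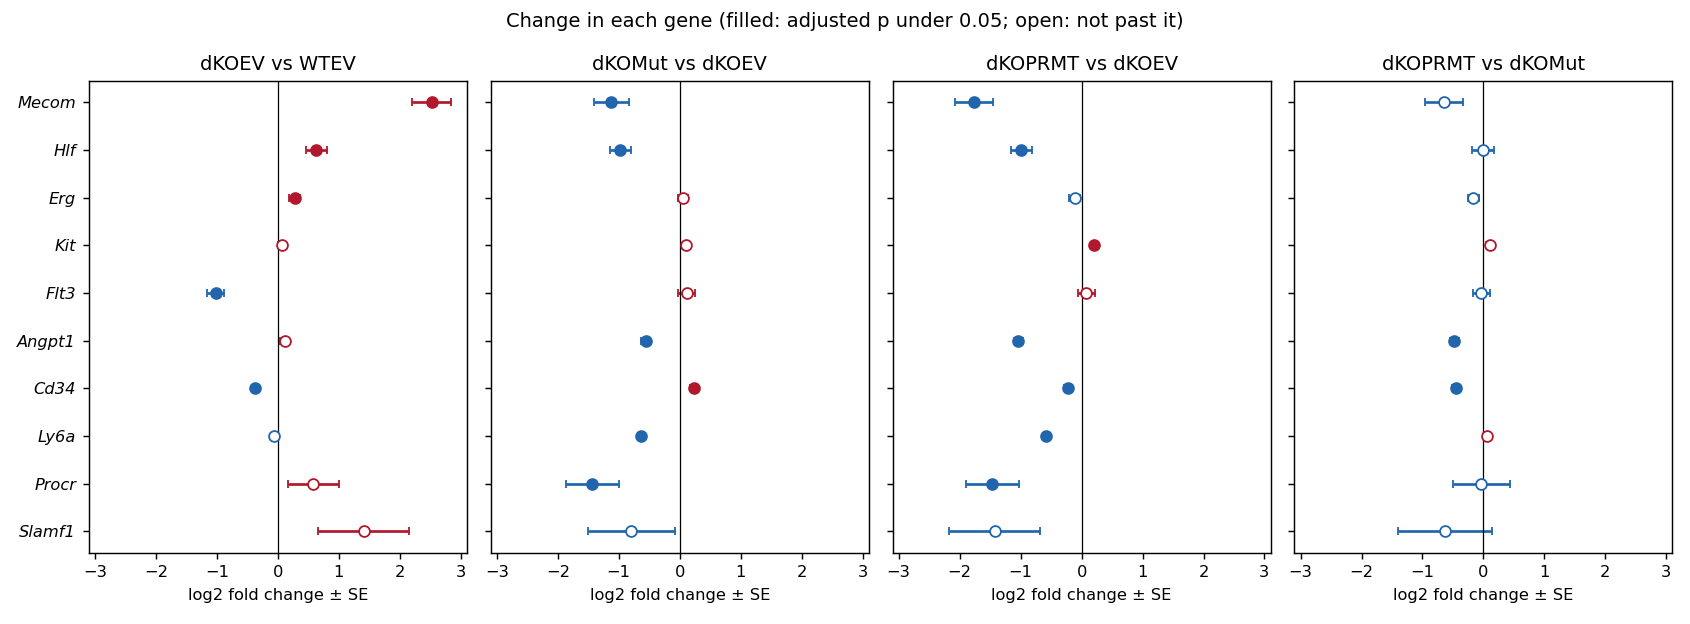
Log2 fold change ± SE of each gene in 4 comparisons, 1 panel each, with filled points for adjusted p under 0.05. In dKOEV against WTEV Mecom (2.52), Hlf (0.63) and Erg (0.28) are filled above 0 and Flt3 (-1.02) and Cd34 (-0.37) below it, and in dKOPRMT against dKOMut Angpt1 (-0.48) and Cd34 (-0.45) are the filled points.

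Other genes known from stem cells were counted in separate lists. Their counts and medians stand beside the shares called and the medians of all tested genes given above. Among 35 tested surface and signalling genes linked to stem cells, 18 rose and 4 fell in dKOEV against WTEV, with a median of 0.33. Not all of the 35 are markers of stem cells, and some are also in the lists of other cell types. Among those that rose were Vwf (1.70 ± 0.13), the coagulation factor of platelet-biased stem cells, the cytokine-signalling inhibitor Cish (1.23 ± 0.09) and the receptor kinase Tie1 (2.32 ± 0.18). The interleukin-33 receptor Il1rl1 was among those that fell (-0.94 ± 0.09). In dKOPRMT against dKOEV, 17 of the 35 fell, with a median of -0.52, and 0 rose in edgeR's quasi-likelihood test, at an unadjusted p under 0.05 or in DESeq2. The adhesion receptors Adgrg1 (-0.66 ± 0.04) and Adgrl4 (-1.08 ± 0.13), the tetraspanin Cd9 (-0.48 ± 0.05) and the transglutaminase Tgm2 (-1.23 ± 0.16) fell there. In dKOMut against dKOEV, 14 fell and 2 rose, with a median of -0.39, and 1 rose without dKOMut replicate 1, dKOPRMT replicate 1 or dKOPRMT replicate 2 and when the compared groups were fitted alone. Adgrg1 stood at 233 and 249 CPM in dKOPRMT, 302 and 298 CPM in dKOMut, 387 and 374 CPM in dKOEV and 301 and 302 CPM in WTEV. Vwf had 27.6 and 31.9 CPM in dKOPRMT, 30.0 and 32.2 CPM in dKOMut, 57.0 and 47.0 CPM in dKOEV and 14.2 and 17.9 CPM in WTEV. In both genes the dKOEV libraries were highest.

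Among 29 tested transcription factors and other regulators of stem cells, 7 rose and 4 fell in dKOEV against WTEV, with a median of 0.08. Mycn rose (0.95 ± 0.16), and the RNA-binding protein Msi2 (-0.54 ± 0.08) and the zinc-finger factor Gata2 (-0.37 ± 0.06) fell. In dKOPRMT against dKOEV, 13 fell and 3 rose, with a median of -0.31. Those that fell included Gata2 (-0.71 ± 0.06) and Gfi1b (-1.29 ± 0.15), a repressor of stem cells and megakaryocytes, while Gfi1, a repressor of granulocyte progenitors, rose (0.67 ± 0.07). In dKOMut against dKOEV, 6 fell and 2 rose, with a median of -0.15. There 3 fell without dKOMut replicate 1, and 1 rose without dKOEV replicate 2 or dKOMut replicate 2. Gata2 was lower in dKOPRMT than in dKOMut (-0.58 ± 0.06). Its level was 125 and 107 CPM in dKOPRMT, 183 and 164 CPM in dKOMut, 199 and 181 CPM in dKOEV and 246 and 243 CPM in WTEV.

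**Figure D4:**
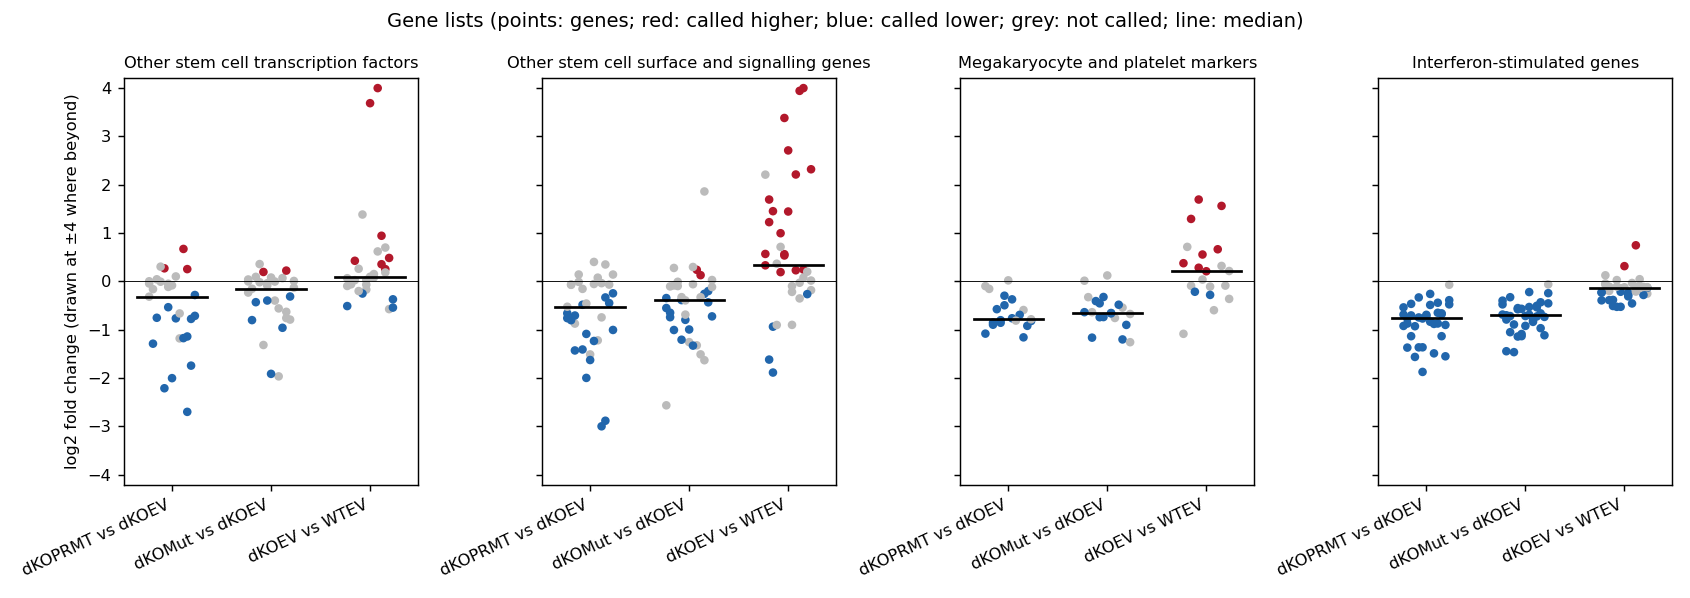
Log2 fold change of each tested gene (points) in 4 lists and 3 comparisons, with the list median as a line, red for genes that rose, blue for those that fell and grey for the rest. Of 35 surface and signalling genes 18 rose in dKOEV against WTEV and 17 fell in dKOPRMT against dKOEV; 2 regulators or surface genes with 0 counts in WTEV, Hoxb5 and Fgd5, have fitted values there that depend on the prior count.

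Relatives of Slamf1 and other genes of lymphoid-primed progenitors, the cells that Flt3 marks, were counted in the same way. Of all tested genes, 7.00% fell in dKOEV against WTEV, and 8.67% in dKOPRMT and 7.08% in dKOMut against dKOEV. Of 8 SLAM-family and related genes, 4 fell in dKOPRMT and 4 in dKOMut against dKOEV, and 3 in either comparison without dKOEV replicate 1. Among them were the receptor genes Ly9 (-0.61 ± 0.07 in dKOPRMT and -0.73 ± 0.07 in dKOMut) and Slamf7 (-0.78 ± 0.10 in dKOPRMT and -0.83 ± 0.10 in dKOMut). In dKOEV against WTEV, 1 of the 8 fell, Cd48 (-0.45 ± 0.07), which stem cells lack and early progenitors carry, and 2 fell without dKOEV replicate 1. Of 16 lymphoid-primed genes, 5 fell and 3 rose in dKOEV against WTEV, and 3 fell without WTEV replicate 1 or WTEV replicate 2. Il7r, the interleukin-7 receptor, fell there (-0.56 ± 0.10), while Notch1 (0.525 ± 0.069) and Ccr7 (1.05 ± 0.23) rose. Against dKOEV, 3 of the 16 fell and 2 rose in dKOPRMT, and 3 fell and 3 rose in dKOMut. Irf8 rose in dKOPRMT (0.29 ± 0.06) and in dKOMut (0.50 ± 0.06). Il7r fell in dKOPRMT (-1.29 ± 0.11) and in dKOMut (-1.45 ± 0.11). The level of Il7r was 19.96 and 19.58 CPM in dKOPRMT, 15.9 and 19.5 CPM in dKOMut, 47.3 and 49.1 CPM in dKOEV and 68.8 and 73.5 CPM in WTEV. Dntt, the template-independent DNA polymerase of lymphoid progenitors, was chosen after its values were seen, with 0.251 and 0.304 CPM in dKOPRMT, 1.03 and 0.271 CPM in dKOMut, 0 and 0.582 CPM in dKOEV and 7.93 and 8.24 CPM in WTEV.

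Several of the 10 genes are also active in megakaryocytes, mast cells or endothelium, so markers of these cells were read beside them. Of 20 megakaryocyte and platelet genes, 14 fell in dKOPRMT and 12 in dKOMut against dKOEV, with medians of -0.77 and -0.64. In dKOEV against WTEV, 8 rose and 2 fell, with a median of 0.21. The platelet genes that rose there included Vwf (1.70 ± 0.13), Selp (1.29 ± 0.17) and Itgb3 (0.67 ± 0.06), while the abundant Thbs1 fell (-0.28 ± 0.04). The summed level of the list was 1590 to 1621 CPM in dKOPRMT, 1608 to 1618 CPM in dKOMut, 2181 to 2237 CPM in dKOEV and 2194 to 2232 CPM in WTEV. Pf4, platelet factor 4, was at 60.8 and 64.6 CPM in dKOPRMT, 67.1 and 59.9 CPM in dKOMut, 115 and 122 CPM in dKOEV and 129 and 122 CPM in WTEV, so that both PRMT1 groups lay below both empty-vector groups, as for Ly6a. Of 20 mast cell, basophil and eosinophil genes, 10 fell and 1 rose in dKOEV against WTEV, and 9 fell and 2 rose in dKOPRMT against dKOMut. The numbers that rose were 2 without dKOMut replicate 2 in the first of these comparisons, and 4 without dKOMut replicate 1 or with no filter on low counts in the second. The summed mast cell, basophil and eosinophil list stood at 1692 to 1703 CPM in dKOPRMT, 1957 to 2026 CPM in dKOMut, 1943 to 1951 CPM in dKOEV and 2792 to 2865 CPM in WTEV. The mast cell protease genes Mcpt4 and Tpsab1 had 0 counts in all 8 libraries, whereas Cpa3 stood at 108 and 116 CPM in dKOPRMT, 212.7 and 212.7 CPM in dKOMut, 179.7 and 181 CPM in dKOEV and 355 and 369.9 CPM in WTEV. Of 19 granulocyte and monocyte progenitor genes, 13 rose and 1 fell in dKOPRMT, and 12 rose and 1 fell in dKOMut against dKOEV, with medians of 0.38 and 0.20. Of the 18 genes listed for endothelium, 9 are also in the stem cell lists. Among the 11 that were tested, 6 fell in dKOPRMT and 4 in dKOMut against dKOEV, and 5 rose and 1 fell in dKOEV against WTEV, with medians of -0.76, -0.55 and 0.57. The gene that fell there was Egfl7 (-0.49 ± 0.16), and none fell without WTEV replicate 1 or WTEV replicate 2 or by DESeq2's Wald test. Kdr, the main receptor for VEGF in vessels and not in the stem cell lists, stood at 4.96 and 4.91 CPM in dKOPRMT, 8.20 and 7.87 CPM in dKOMut, 12.4 and 10.3 CPM in dKOEV and 9.94 and 9.96 CPM in WTEV. The summed endothelial list stood at 215 to 216 CPM in dKOPRMT, 226 to 241 CPM in dKOMut, 281 to 289 CPM in dKOEV and 209 to 230 CPM in WTEV. Cldn5, a junction protein of vessels, had 0 counts in all libraries, and Cdh5, the cadherin of vessel walls, did not exceed 0.380 CPM. The part of the megakaryocyte, mast cell, granulocyte and endothelial genes in the changes of the 10 genes was not tested.

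For each gene at a mean of 5 CPM or more, the most similar gene across the 8 libraries was sought by Pearson's r of log2(CPM + 1). The nearest were Muc13 for Angpt1 (r = 0.992), Pole4 for Cd34 (r = 0.992), Znfx1 for Ly6a (r = 0.993), Hgsnat for Flt3 (r = 0.990), Pstpip2 for Kit (r = 0.982), Hist2h2be for Hlf (r = 0.980) and Degs1 for Erg (r = 0.978). These r values describe 8 libraries in 4 groups and are the highest among 9945 genes, so they were given no test. Next after Hgsnat for Flt3 were Kdm5c, an X-linked gene, at r = 0.990 and Pkm at r = 0.988. Any part of sex in the Flt3 values was not tested. Mecom, Procr and Slamf1 were below 5 CPM on average and were given no match.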

How the data were processed

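RNA of 8 libraries, 4 groups of 2, was measured. Per the labels' protocols, RNA was purified with RNeasy Plus Micro columns and a directional NEB Ultra II kit made the libraries. Per the submitters' processing notes, Trim Galore 0.6.6, STAR 2.7.6a and featureCounts were used with GRCm38. Neither the annotation nor the strand option of the counting is given in the sources used here. In this table, the authors deposited raw read counts per gene. Groups came from the titles, since the cell type label calls every library dKO.

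The 10 genes and all lists were chosen with earlier results of these data known. The test was edgeR 4.0.16 in R 4.3.3 (filterByExpr, TMM, quasi-likelihood test with robust dispersion, group as the only term, all libraries). The common biological coefficient of variation was 0.0637, with 4 residual and a median of 30.37 prior degrees of freedom, so the spread of a gene is drawn towards that of other genes. Adjusted p-values are Benjamini-Hochberg, at a threshold of 0.05. Standard errors came from the fold change and F. CPM and RPKM used TMM-scaled library sizes and the deposited gene length. The steps were tested on simulated data. Of each list, up to 4 called genes at 5 CPM or more with the smallest p could be named, some left out for room. Replicates differed by more than sampling noise, at a chi-square of 3.647 to 6.432 per degree of freedom. Alternatives were DESeq2 size factors, no filter on low counts, a replicate block, the compared groups alone, DESeq2 1.42.0 and each library left out. Promoters came from RefSeq.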

Additional observations from a re-analysis of the deposited data

How the results depend on the processing

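The 60 values of the 10 genes, 1 for each gene and comparison, were recomputed under 13 alternatives, of which 8 left out 1 library. Of 779 recomputed values, 736 kept their direction and their side of the threshold. Outside the left-out libraries, 3 calls changed, all given above. Over the 8 libraries left out, members called ran from 3 to 5 in dKOEV against WTEV, 3 to 7 in dKOMut against dKOEV and 4 to 7 in dKOPRMT against dKOEV. Members that rose ran from 1 to 3 in dKOEV against WTEV, 1 to 3 in dKOMut against WTEV, 0 to 2 in dKOMut against dKOEV and 0 to 1 in dKOPRMT against dKOEV, and members that fell from 3 to 5 in dKOMut against dKOEV. All genes called ran from 1149 to 1996 in dKOEV against WTEV, 1954 to 3394 in dKOPRMT against WTEV, 1058 to 1945 in dKOPRMT against dKOEV and 171 to 550 in dKOPRMT against dKOMut. A group with 1 library left is assumed to vary like the others. Over the same libraries left out, 9 small or poorly counted changes took both signs. Kit in dKOEV against WTEV ran from -0.029 to 0.15, Flt3 in dKOMut against dKOEV from -0.021 to 0.25 and Flt3 in dKOPRMT against dKOEV from -0.0033 to 0.17. Between dKOPRMT and dKOMut, Hlf ran from -0.18 to 0.13, Flt3 from -0.17 to 0.10, Procr from -0.30 to 0.21 and Slamf1 from -1.22 to 0.31. Slamf1 ran from -0.43 to 0.61 in dKOPRMT and from -0.32 to 1.25 in dKOMut against WTEV. None of these reversed values was past the threshold. With the replicate block, the counts of members called stayed at 5 in dKOEV against WTEV, 6 in dKOMut against dKOEV and 7 in dKOPRMT against dKOEV, and the block changed no other call of the 10 genes. Libraries with the same number did not deviate together (correlations of -0.0423 to 0.0203). A shared origin could be hidden by the noise of single libraries, so these correlations cannot decide whether the numbers pair them. DESeq2 size factors moved the CPM of the 10 genes by at most 0.244%. DESeq2 gave no adjusted p for Slamf1 in dKOPRMT against dKOMut. As to depth, Slamf1 had 7 to 37 counts a library, Procr 22 to 94 and Mecom 24 to 210.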

Other observations

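Some cell cycle genes rose in dKO cells with either PRMT1 construct. The median of the proliferation list was 0.16 in dKOPRMT and 0.07 in dKOMut against dKOEV. Of all tested genes, 5.96% rose in dKOPRMT and 4.24% in dKOMut against dKOEV. Of 23 proliferation genes, 9 rose and 1 fell in dKOPRMT against dKOEV, among them the proliferation marker Mki67 (0.37 ± 0.05), the mitotic kinesin Kif11 (0.23 ± 0.05) and the replication factor Cdc45 (0.31 ± 0.07). Without dKOPRMT replicate 1, 3 rose, and without dKOPRMT replicate 2, 5 rose. In dKOMut against dKOEV, 4 rose and 1 fell, with Mki67 at 0.31 ± 0.05. When only the compared groups were fitted, 2 rose and 0 fell, and 0 fell by DESeq2's Wald test. Among the 4 was Cdkn1b (0.31 ± 0.10), an inhibitor of the cell cycle that the list also holds. There 2 rose without dKOMut replicate 1, the number that fell was 2 without dKOMut replicate 2, and it was 0 without WTEV replicate 1 or 2, dKOEV replicate 1, dKOMut replicate 1 or dKOPRMT replicate 1 or 2.

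Genes of the erythroid and macrophage lineages were counted as well, beside the shares of all tested genes called that are given above. Of 17 erythroid genes, 8 fell and 1 rose in dKOPRMT against dKOEV, among them Zfpm1 (-1.03 ± 0.08), the GATA cofactor FOG-1, and carbonic anhydrase Car2 (-0.93 ± 0.08), and 5 fell without dKOPRMT replicate 1. The transferrin receptor Tfrc rose (0.31 ± 0.04). In dKOMut against dKOEV, 6 of the 17 fell and 11 did not pass, with Zfpm1 at -0.75 ± 0.07 and Car2 at -0.70 ± 0.08. Of 33 monocyte, macrophage and dendritic genes, 14 fell and 9 rose in dKOPRMT, and 20 fell and 5 rose in dKOMut against dKOEV. Lipoprotein lipase Lpl fell in both, at -1.21 ± 0.04 in dKOPRMT and -1.23 ± 0.04 in dKOMut.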
